A study of Mus musculus with 4 samples.

Results

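The ileal bile acid handling genes are 9 genes of the enterohepatic circulation: Slc10a2, Fabp6, Slc51a, Slc51b, Abcc3, Abcc2, Nr1h4, Nr0b2 and Fgf15. They were chosen by name, with earlier results of these data known, and each was represented by the only array feature (probe set) that carried its symbol, so 9 of 45037 probe sets and 9 of 18193 genes are described. Expression was measured on 4 Affymetrix arrays, 1 for each group: epithelial cells and Peyer's patch cells of C57BL/6 mice monocolonized with Lactobacillus NK318.1 and sampled 2 weeks later, and the same tissues of C57BL/6 germ-free (GF) mice that received no bacteria. All mice, colonized or not, were germ-free at the start and were housed in vinyl isolators, and the colonizing dose was 100000000 bacteria per the labels. The figure legend of the study gives pooled samples (n = 6) and names the ileum as the source of the epithelial cells, while the labels say intestinal only. Because each group is 1 array, there are no replicates and nothing could be tested: every difference below is a ratio of 2 signals, given as log2 of colonized over GF. Signals are linear MAS5 intensities, those under a floor of 15.5 were raised to it, and a gene was counted as measured in a tissue when at least 1 of its arrays lay above that floor.

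Several properties of the pools move with colonization. The epithelial array of colonized mice carried stomach and pancreas transcripts. Pancreas transcripts were also present on the epithelial array of GF mice, mostly at lower signals (Cela1 had 1859 in colonized and 418 in GF mice). Most leukocyte genes had lower signals on the epithelial array of colonized mice than on that of GF mice. The values stand with the marker lists further on. Xist, which is transcribed from the inactive X chromosome of female cells, had signals of 4889 in epithelial cells and 4586 in Peyer's patch of colonized mice, against 46.7 and 21.7 in GF mice, and the Y-linked Kdm5d had 5.46 and 2.27, against 90.6 and 165. Eif2s3y and Uty, also Y-linked, were under the floor on both arrays of colonized mice and above it on both arrays of GF mice. The sex of the pools and colonization cannot be told apart in either tissue. The 3′ to 5′ signal ratio of β-actin, a gauge of RNA integrity, was 4.10 in epithelial cells of colonized mice and 2.73 in those of GF mice, and 1.74 and 1.60 in Peyer's patch. The part of these differences in the values below was not tested.

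Bile acids are made in the liver, help to absorb fat in the small intestine and are taken back up almost wholly in its last stretch, the ileum. There SLC10A2 (also called ASBT) carries them across the brush border together with sodium, FABP6 binds them in the cytosol, and the paired carrier SLC51A and SLC51B (OSTα and OSTβ) lets them out toward the portal blood. Inside the enterocyte they activate the nuclear receptor FXR, encoded by Nr1h4, which induces Fabp6, Slc51a, Slc51b, the corepressor gene Nr0b2 (SHP) and Fgf15, a hormone that tells the liver to make less bile acid. Gut bacteria deconjugate and modify bile acids, so germ-free animals have a different bile acid pool from colonized ones.

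In epithelial cells, the cytosolic binder and both subunits of the basolateral carrier had lower signals in colonized than in GF mice, as did Fgf15, whereas the export pump gene Abcc3 was higher. The receptor gene Nr1h4, its target Nr0b2 and the apical pump gene Abcc2 lay close to equal. At least 2-fold lower were 4 of the 9 genes, against 1.54% of all 13874 measured genes, and at least 2-fold higher was 1 of the 9, against 2.63%. The median log2 ratio of the 9 genes was −0.31 and that of all measured genes 0.02. All 9 passed the floor, but Slc10a2 did so only through the GF array. In these whole pools, fewer ileal enterocytes and less RNA per enterocyte cannot be told apart.

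**Figure D1:**
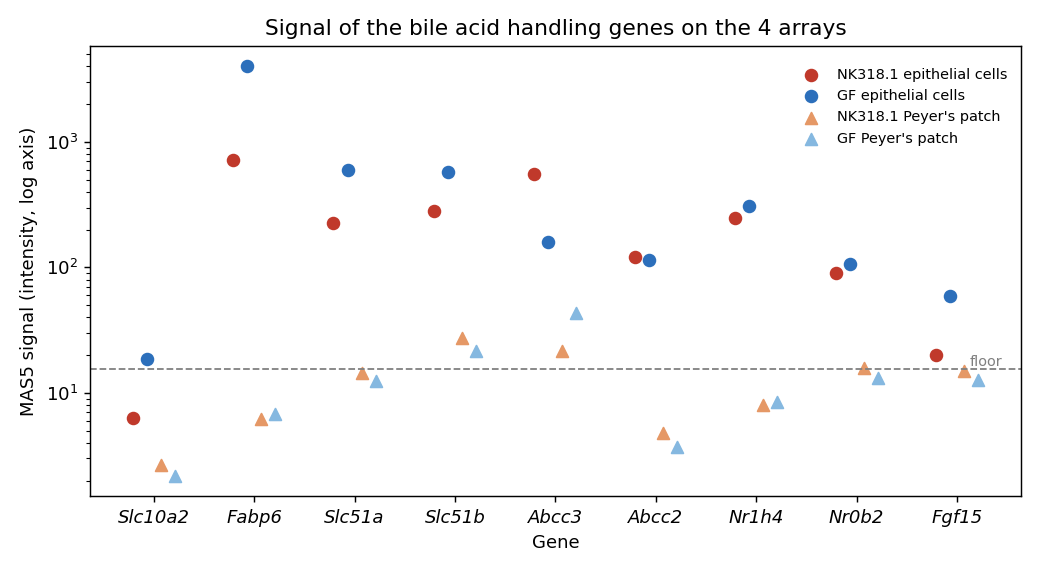
MAS5 signal (intensity, log axis) of the 9 bile acid handling genes, 1 point for each of the 4 arrays, with the floor of 15.5 as a dashed line. Circles are epithelial cells and triangles Peyer's patch, and Fabp6 shows the widest gap between them, with 4002 in GF epithelial cells and both Peyer's patch points below the dashed line.

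Slc10a2, the uptake carrier, was barely detected. Its signal was 6.27 in epithelial cells of colonized mice and 18.6 in those of GF mice, and 2.65 and 2.18 in Peyer's patch. Only the GF epithelial array lay above the floor, so the gene was at least 1.20-fold lower in colonized mice, and without a floor the log2 ratio would be −1.57. A difference in Slc10a2 beyond that bound was not measurable at this signal.

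Fabp6, the bile acid binder of ileal cytosol, had a signal of 718 in epithelial cells of colonized mice and 4002 in those of GF mice. The log2 ratio was −2.48, which is 5.58-fold lower and rank 20 from the lowest of 13874 measured genes. It had the lowest ratio of the 9 genes, and its direction and its place beyond 2-fold held under each alternative tried, where it ran from −2.51 to −1.52.

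The promoters of these first 2 genes are shown because Fabp6 had the lowest ratio of the group and Slc10a2 is the carrier through which uptake starts. RefSeq windows of GRCm38.p6, from 250 bases before to 50 bases after a start site, were found for 7 of the 9 genes (not for Fgf15 and Abcc3). They were searched on both strands for the FXR inverted repeat AGGTCANTGACCT and the HNF1 palindrome GTTAATNATTAAC, each with up to 2 mismatches, for the LRH-1 site TCAAGGTCA with up to 1 mismatch, which shares the AGGTCA half-site with the first motif, and for the GATA site AGATAA. Capitals mark the matches to the first 3 motifs.

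Fabp6, chr11:43601513-43601812, minus strand: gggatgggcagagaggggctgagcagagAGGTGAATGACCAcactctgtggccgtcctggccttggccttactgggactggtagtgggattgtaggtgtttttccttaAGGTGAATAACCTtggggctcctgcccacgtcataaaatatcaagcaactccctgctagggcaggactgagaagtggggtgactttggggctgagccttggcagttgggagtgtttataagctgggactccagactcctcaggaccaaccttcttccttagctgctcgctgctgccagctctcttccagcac
Slc10a2, chr8:5105238-5105537, minus strand: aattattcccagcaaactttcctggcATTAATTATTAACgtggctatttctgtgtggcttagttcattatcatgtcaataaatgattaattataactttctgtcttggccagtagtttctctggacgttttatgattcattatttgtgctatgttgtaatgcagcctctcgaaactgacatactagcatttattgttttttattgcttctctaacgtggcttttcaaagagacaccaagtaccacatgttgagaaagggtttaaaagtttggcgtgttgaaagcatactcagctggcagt

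Within this window Fabp6 held 2 matches to the FXR inverted repeat, AGGTGAATGACCA from 222 to 210 bases and AGGTGAATAACCT from 142 to 130 bases before the start. Such a match was present in 1.14% of 32851 RefSeq promoter windows. Slc10a2 held ATTAATTATTAAC, a match to the HNF1 palindrome, from 224 to 212 bases before the start. Abcc2 (GTTAACTATTAAG, 75 to 63 bases before) and Nr1h4 (GTTAATCAGTAAA, 40 to 28 bases before) also matched that palindrome, which 1.36% of windows held. The LRH-1 site was in none of the 7 windows, against 7.46% of all windows, and the GATA site was in Nr1h4 only, against 11.2%. The windows of Nr0b2, Slc51a and Slc51b held none of the 4 motifs. A match describes letters in a window and is not a measured binding site.

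Slc51a and Slc51b encode the paired subunits of the basolateral bile acid carrier, and both were at least 2-fold lower. Slc51a had a signal of 228 in epithelial cells of colonized mice and 601 in those of GF mice, a log2 ratio of −1.40. Slc51b had 280.5 and 571, a log2 ratio of −1.03, just past the 2-fold limit. The gap between the 2 log2 ratios cannot be judged without replicates. The probe set of Slc51a, like that of Abcc2, is of the kind that Affymetrix marks as shared by several transcripts.

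Abcc3 encodes MRP3, a basolateral ATP-driven pump for bile acid conjugates and glucuronides, and it was the only gene of the 9 that was at least 2-fold higher. Its signal in epithelial cells was 555 in colonized and 158 in GF mice, a log2 ratio of 1.81 and rank 80 from the highest. Under the alternatives the ratio ran from 1.73 to 2.76. Abcc2 encodes MRP2, the apical pump for organic anions. Its signal was 120.0 in colonized and 114 in GF epithelial cells, a log2 ratio of 0.07.

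Nr1h4, the gene of FXR, had a signal of 247 in epithelial cells of colonized mice and 308 in those of GF mice, a log2 ratio of −0.31. Nr0b2 encodes SHP, the corepressor that FXR induces, and had 91.0 and 106, a log2 ratio of −0.22. Fgf15, the ileal hormone gene, had 19.9 and 58.9, a log2 ratio of −1.56 and rank 59 from the lowest. The FXR-induced genes of the group therefore did not share 1 ratio: Fabp6, Fgf15, Slc51a and Slc51b ran from −2.48 to −1.03, and Nr0b2 lay within the middle of all genes, whose central 95% ran from −0.86 to 1.03. The colonized Fgf15 signal was close to the floor, and with the floor at the 60th percentile of signal its log2 ratio was −0.66, short of 2-fold.

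**Figure D2:**
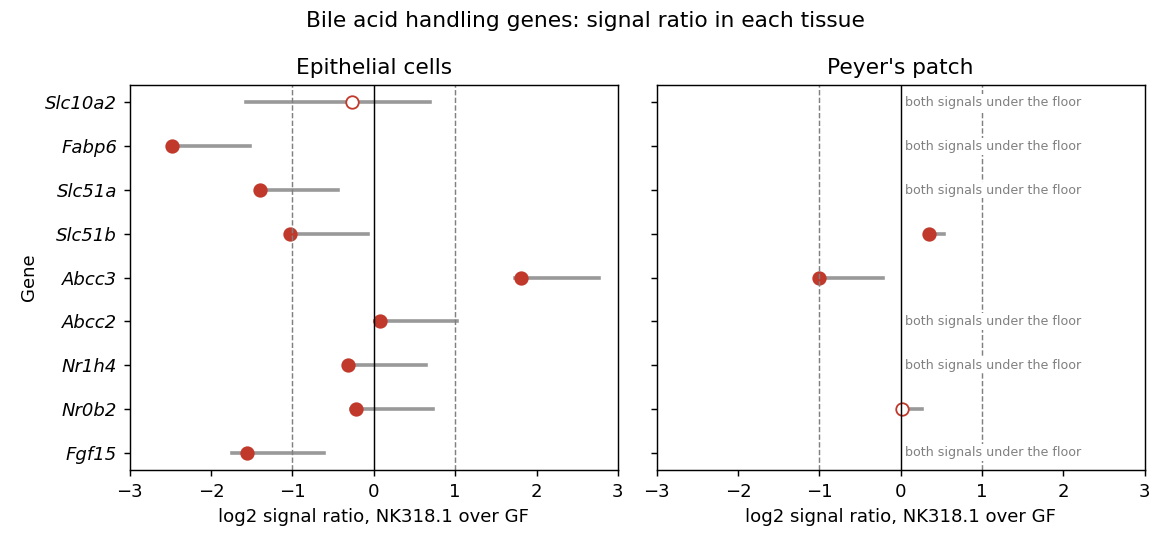
Log2 signal ratio, colonized (NK318.1) over GF, of each gene in epithelial cells (left) and Peyer's patch (right). Filled points are ratios with both signals above the floor, open points are bounds, grey lines are the range over the alternative settings and dashed lines mark 2-fold, which Fabp6, Slc51a, Slc51b and Fgf15 passed downward and Abcc3 upward in epithelial cells.

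**Figure D3:**
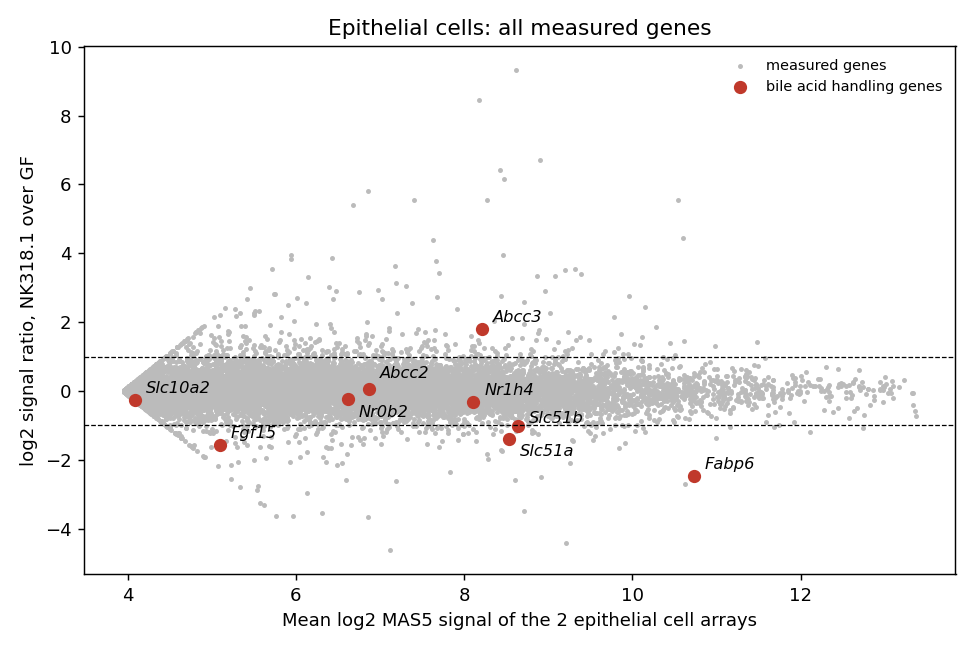
Log2 signal ratio, colonized (NK318.1) over GF, against the mean log2 signal of the 2 epithelial cell arrays for 13874 measured genes (grey) and the 9 bile acid handling genes (red), with dashed lines at 2-fold. Fabp6 lies at −2.48 and Abcc3 at 1.81, while Slc10a2 sits at the left edge where the floor limits the ratio.

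Most other genes of enterocytes also had ratios below 0. Of 14 further genes that are richest in enterocytes of the distal small intestine, 13 had a ratio below 0, 6 were at least 2-fold lower, and the median was −0.96. Among them Slc34a2, a phosphate carrier, had a signal of 59.0 in colonized and 361 in GF mice (log2 ratio −2.61), and Cubn, the ileal receptor for vitamin B12 with intrinsic factor, had 75.2 and 220 (−1.55). The others past 2-fold were Naaladl1 (−1.46), Maf (−1.41), Clec2h (−1.37) and the aminopeptidase gene Enpep (−1.04). Maf was not particular to epithelial cells: it had 453 in colonized and 1209 in GF epithelial cells, and 607 and 611 in Peyer's patch. Prss30, a serine protease, was highest at 0.29 and Dpep1, a dipeptidase, followed at −0.41. Of 15 genes of the proximal small intestine, none was 2-fold lower and 1, the iron exporter gene Slc40a1 (1.20), was 2-fold higher, with a median of −0.45. Lowest of these were Apoc3 (−0.83) and Rbp2 (−0.81), and the transcription factor gene Onecut2 (0.76) stood next to Slc40a1. General enterocyte markers had a median of −0.62, with 3 of 12 at least 2-fold lower (Anpep −1.23, Slc15a1 −1.19, Apob −1.07). Alpi (0.44) and Fabp2 (−0.41) were highest. The other probe set of Apob had −0.17, so its call rests on the brightest probe set. The 5 others of Maf ran from −1.18 to −0.30. Those at −1.18 and −1.11 were also past 2-fold, and those at −0.97, −0.32 and −0.30 were not. Pan-epithelial genes had a median of −0.09, with 0 of 8 at least 2-fold apart. Krt18 (0.43) and Elf3 (0.33) were highest, Cldn3 (−0.31) and Cldn7 (−0.30) lowest, and the defining markers Epcam and Krt8 had −0.12 and −0.06.

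The lower ratios of the bile acid genes thus stand beside lower ratios of most enterocyte genes. Taken relative to the enterocyte marker median, Fabp6 had −1.86, whereas Fgf15 (−0.94), Slc51a (−0.78) and Slc51b (−0.40) were no longer 2-fold lower while Nr1h4 had 0.31 and Abcc3 2.43. Relative to the median of the other distal genes, Fabp6 had −1.52, Fgf15 −0.61, Slc51a −0.45, Slc51b −0.07, Nr1h4 0.64, Nr0b2 0.73, Abcc2 1.03 and Abcc3 2.76. Relative to the pan-epithelial median, Fabp6, Fgf15, Slc51a and Abcc3 kept their call and Slc51b had −0.94.

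Markers of other tissues also differed between the epithelial arrays. Gastric mucosa genes were at least 2-fold higher in colonized mice for 9 of the 11 measured, and their signals summed to 36597 in colonized and 471 in GF mice. Gkn2, a gastrokine gene of the stomach surface, had 9949 and 12.5, whereas Atp4a (0.37) and Atp4b (0.09), which encode the proton pump of parietal cells, were less than 2-fold apart. Pancreatic acinar genes passed 2-fold upward for 9 of 10, with Cel highest (3.79), and their sums were 20146 in colonized and 9143 in GF mice. Zg16, which goblet cells of the intestine also express, made up 7518 and 7331 of these sums and had a ratio of 0.04. Fibroblast and smooth muscle genes passed upward for 7 of 10, with sums of 1690 in colonized and 568 in GF mice. Leukocyte genes passed downward for 8 of 11, with the granzyme genes Gzmb (−4.62) and Gzma (−4.41) lowest and sums of 624 in colonized and 5052 in GF mice. The T cell gene Cd3e went the other way, with 273 in colonized and 230 in GF mice (0.24). In Peyer's patch the same leukocyte genes summed to 13181 in colonized and 13591 in GF mice. The 8 pan-epithelial genes summed to 23246 and 24135 in epithelial cells and to 180.0 and 182 in Peyer's patch. The epithelial arrays were thus richer in epithelial and the Peyer's patch arrays in leukocyte transcripts. Pan-epithelial genes do not tell intestinal from other epithelium, and in the colonized epithelial pool the gastric sum was above the pan-epithelial sum. The part of these other tissues in the ratios of the bile acid genes was not tested.

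**Figure D4:**
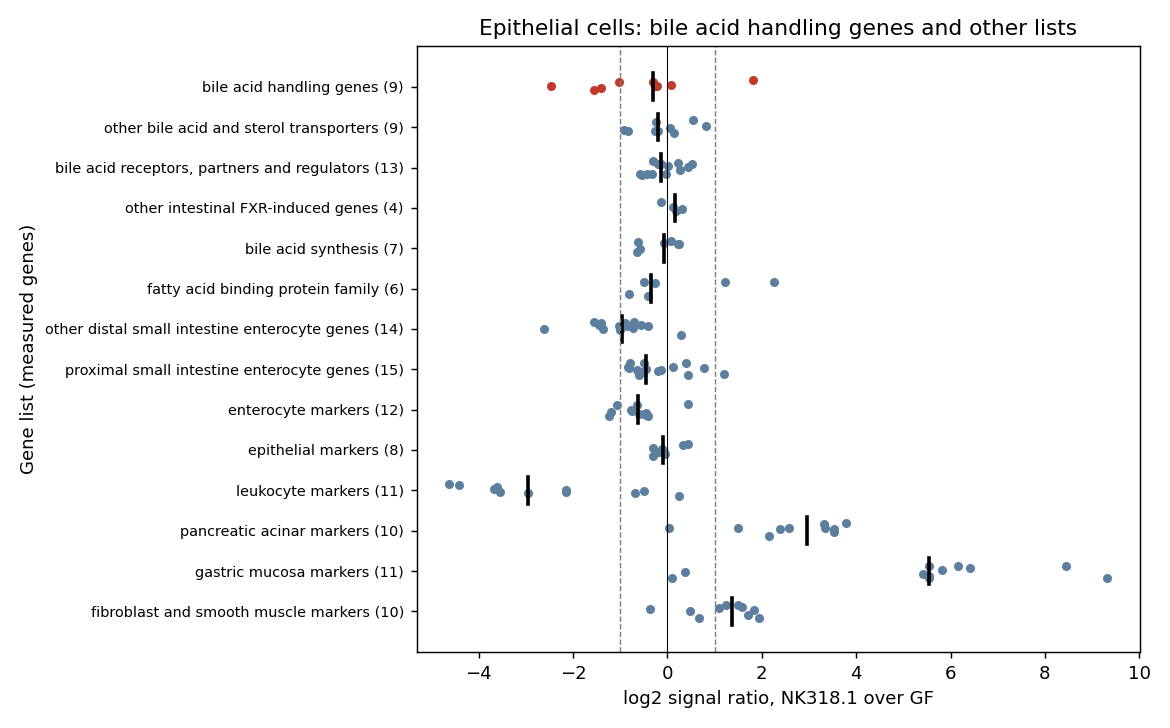
Log2 signal ratio, colonized (NK318.1) over GF, in epithelial cells for each measured gene of 14 lists, with the number measured in brackets, black bars at the medians and dashed lines at 2-fold. The bile acid handling genes (red, median −0.31) spread from −2.48 to 1.81, the other distal genes center on −0.96 and the gastric markers on 5.55.

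Of the wider pathway, no measured transporter, regulator, further FXR-induced gene or synthesis gene was 2-fold apart in epithelial cells. Over all measured genes, 1.54% were at least 2-fold lower and 2.63% higher, so counts of 0 in lists this small say little. Of 9 measured transporters of bile acids, phospholipid and sterols outside the group (12 were listed), 0 were at least 2-fold apart and the median log2 ratio was −0.19. Atp8b1, the phospholipid flippase whose loss causes cholestasis in humans, was lowest with a signal of 581 in colonized and 1100 in GF mice (−0.92), followed by the efflux pump gene Abcg2 (−0.83). Abcc4 (0.81) and Abcc1 (0.55, with −0.08 at its other probe set), which encode pumps related to MRP3, were highest. Abcb11, the bile salt export pump gene of the liver, and the liver uptake genes Slc10a1 and Slco1b2 were under the floor on both epithelial arrays.

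Of 13 measured receptors, partners and regulators (18 were listed), 0 were at least 2-fold apart and the median was −0.13. The glucocorticoid receptor gene Nr3c1 (−0.58) and Nr5a2 (−0.54), which encodes LRH-1, were lowest. The FXR partner gene Rxrb (0.53) and Gata4 (0.44), which marks and helps to specify the proximal small intestine in mice, were highest. Vdr, encoding the vitamin D receptor that also senses lithocholic acid, had 811 in colonized and 834 in GF mice (−0.04). Hnf4a had 2070 and 2272 (−0.13), but its other probe sets had −0.65, −0.57 and −0.27. Other probe sets above the floor had −0.81 and −0.03 for Nr5a2, and −0.59, −0.26 and −0.18 for Nr3c1. The order of the lowest genes therefore rests on the brightest probe set. Klb, the coreceptor gene through which the liver reads FGF15, was under the floor.

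Further genes that FXR induces in mouse intestine lay closer to 0: of 4 measured, Car12 had 0.31, Nos2 0.18, Ang 0.13 and Il18 −0.14. Of the bile acid synthesis genes, 7 of 11 were measured and 0 were 2-fold apart. Amacr (−0.65) and Acox2 (−0.62), both of the peroxisomal side-chain steps, were lowest, Hsd3b7 (0.25) and Cyp2c70 (0.21) were highest, and Cyp7a1, the rate-limiting enzyme gene of the liver pathway, was under the floor.

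Among the relatives of Fabp6, the enterocyte genes Fabp1 and Fabp2 had log2 ratios of −0.50 and −0.41, with signals of 4666 in colonized and 6604 in GF mice and of 8958 and 11920. Lowest outside Fabp6 was the retinol binder gene Rbp2 (−0.81). Fabp5 (2.26, signals 1141 in colonized and 237 in GF mice) and the adipocyte and endothelial gene Fabp4 (1.21) were at least 2-fold higher, though another probe set of Fabp4 had 0.40. Fabp6 thus had the lowest ratio of its family on these arrays.

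In Peyer's patch most of the group was not measured. Fabp6, Slc10a2, Nr1h4, Fgf15, Slc51a and Abcc2 were under the floor on both arrays, with Fabp6 at 6.20 in colonized and 6.80 in GF mice. In the same order Nr1h4 had 7.99 and 8.41, Fgf15 14.8 and 12.6, Slc51a 14.5 and 12.5, and Abcc2 4.74 and 3.67, so no ratio is given for them. Of the 3 measured genes 0 were at least 2-fold higher, against 0.149% of 12736 measured genes, and 1 was at least 2-fold lower, against 0.573%. Abcc3 had a signal of 21.5 in colonized and 43.2 in GF mice, a log2 ratio of −1.01, opposite to its ratio in epithelial cells. This ratio sat on the 2-fold limit near the floor and was −0.92 after quantile normalization. Slc51b had 27.4 and 21.5 (0.35), and Nr0b2 had 15.7 and 13.1, at least 1.01-fold higher.

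Every gene with a ratio had a higher signal in epithelial cells than in Peyer's patch. In both mouse groups, Fabp6, Nr1h4, Fgf15, Slc51a and Abcc2 passed the floor only in epithelial cells, so the filter fixed their direction. In GF mice the same held for Slc10a2 and Nr0b2. The 2-fold counts below include these genes, and their ratios are bounds. The signals of Slc10a2 and, in colonized mice, Fgf15 were near or under the floor. In colonized mice, 7 of the 8 with a ratio were past 2-fold toward epithelial cells over Peyer's patch, against 18.4% of all measured genes, and in GF mice 8 of 9, against 16%. In colonized mice Fabp6 was at least 46.3-fold higher in epithelial cells, Slc51a at least 14.7-fold, Slc51b 10.3-fold and Nr1h4 at least 15.9-fold. In GF mice Fabp6 was at least 258-fold higher, Slc51a at least 38.7-fold, Slc51b 26.5-fold and Nr1h4 at least 19.8-fold. Fgf15 was at least 1.29-fold higher in colonized and at least 3.80-fold higher in GF mice, and was the gene short of 2-fold in colonized mice, as Slc10a2 (at least 1.20-fold) was in GF mice. For Abcc3 the order of the 2 mouse groups was the other way, 25.9-fold in colonized and 3.67-fold in GF mice. Each pair of tissue ratios uses the same 4 arrays as the colonization ratios and adds no further evidence on them.

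The genes whose signals ran closest to Fabp6 over the 4 arrays, by root mean square difference of log2 signals, taken without the floor and centered on each gene's mean, were Clec2h, a lectin gene of distal enterocytes (0.41), then Apob, Reg4, Enpep and Reg3b (0.52 to 0.56), of 14349 genes compared. Clec2h had signals of 1267 in colonized and 3276 in GF epithelial cells. Closest to Nr1h4 were Tmem98, Pde5a, Styk1, Tspan8 and Ms4a8a (0.07 to 0.09). Closest to Fgf15 were Adcy8, Tgfbi, Slc2a13, Dusp5 and Ces1c (0.11 to 0.21). Adcy8 was under the floor on 3 of 4 arrays, with 5.84 in colonized and 15.8 in GF epithelial cells. Fgf15, Fabp6 and Nr1h4 were each under the floor on both Peyer's patch arrays. Under it there too were Clec2h, Apob, Reg4 and Reg3b, but not Enpep, among the genes near Fabp6. Among those near Nr1h4, Pde5a and Styk1 were. For Slc10a2, with 3 of 4 signals under the floor, they were Lonrf3, Hykk, Celf5, Gm28523 and Sec23a (0.07 to 0.25). Over 4 arrays such a distance is a description only.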

How the data were processed

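RNA of epithelial cells and Peyer's patch was extracted with Trizol and hybridized to Affymetrix 3′ expression arrays, 1 pooled array per group. The deposited values are intensities per probe set that the authors computed with MAS5 (version and scaling target not given in the sources used here). MAS5 combines the probes of a set and scales whole arrays, so ratios depend on that scaling, and low intensities are mostly background. The methods of the study name limma and an adjusted p-value, which 1 array per group cannot give.

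Beside 45037 probe sets, 64 controls were used only for 3′ to 5′ ratios. Symbols came from GEO's platform annotation: 34945 probe sets had 1 gene, 932 several (left out) and 9160 none. Where a gene had several probe sets, the one brightest on average (mean log2) stood for it. The 40th percentile of each array was taken, and the median of these 4 values was the floor. Genes were counted at 2-fold. Members, gene lists and settings were chosen with earlier results of these data known. Genes named are all members, the 2 highest and 2 lowest of each list with any past 2-fold, the sex-linked genes and the 5 nearest genes by signal. Exceptions are the marker lists of other tissues, given by counts with a few names, and Epcam, Krt8, Vdr, Hnf4a and genes under the floor, all picked with values known. The settings varied were the scaling (median, quantile or loess), floors at the 25th or 60th percentile or none, averaged probe sets, leaving out less specific ones, counting at 1.5-fold or 4-fold, and ratios relative to enterocyte markers. Ratios relative to pan-epithelial and to other distal genes were added after seeing the data. The number of arrays limits precision. Code was tested on simulated data (Python 3.11.15, numpy 2.4.6, pandas 2.3.3, statsmodels 0.14.6, matplotlib 3.10.9).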

Additional observations from a re-analysis of the deposited data

Results flagged for a closer look

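The log2 ratio of colonized over GF had opposite signs in the 2 tissues for each of the 3 genes with a ratio in both, and with 1 array per group this was not tested. Of all 12260 genes with a ratio in both tissues, 50.3% had opposite signs. For Abcc3, epithelial cells minus Peyer's patch gave 2.82, from 1.81 in epithelial cells and −1.01 in Peyer's patch. For Slc51b it gave −1.37, from −1.03 and 0.35. For Nr0b2 it gave −0.24, from −0.22 and 0.02, where 0.02 is a bound because the floor replaced the GF signal, and the ratio without a floor was 0.26. The Peyer's patch signals of all 3 genes lay between 13.1 and 43.2, close to the floor of 15.5.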

How the results depend on the processing

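No paired analysis was possible because only 1 array stood for each group, and no array could be left out. For the same reason no value has an error, and signals near 15.5 limit Slc10a2, Fgf15 and all Peyer's patch values. In epithelial cells the median log2 ratio of the 9 genes was −1.03 both with a floor taken at the 25th percentile and without any, as Slc10a2 then counted as lower, 0.31 relative to enterocyte markers and 0.64 relative to other distal genes. The 4 lower genes became 1 (Fabp6) at 4-fold, 1 relative to enterocyte markers and 1 relative to other distal genes, and the 1 higher gene became 0 at 4-fold and 2 relative to other distal genes. Over all genes, the higher ones numbered 235 with averaged probe sets, 1292 at 1.5-fold, 65 at 4-fold and 2497 relative to enterocyte markers, and the lower ones 943, 29 and 50 at the last 3 settings. Relative to enterocyte markers the median of all genes was 0.64, relative to other distal genes 0.97 and relative to pan-epithelial genes 0.11, against 0.02 as reported. In Peyer's patch the median of the measured genes was 0.23 with a floor taken at the 25th percentile or with none, −0.21 at the 60th percentile and 0.21 relative to other distal genes. The 1 lower gene there, Abcc3, became 0 after quantile normalization, with the floor at the 60th percentile, at 4-fold and relative to each of the 3 reference lists. All genes higher in Peyer's patch numbered 29 without a floor, 118 at 1.5-fold and 4 at 4-fold, and all genes lower 349 and 8 at these limits. Of 151 values of single genes, 130 kept their side of the limit, which was 1.5-fold or 4-fold where the setting changed it. No gene beyond 2-fold as reported changed sign. Of 286 medians of other lists, 232 moved by less than the robust spread of all genes. Abcc2 and Slc51a have no value without less specific probe sets. The causes of these changes, other than the settings' own construction, were not tested.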
